A study of Mus musculus with 10 samples.

Results

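The 10 genes described here belong to the fibroblast growth factor (FGF) axis and were taken by symbol from a table of 17864 genes: the carrier protein gene Fgfbp1, the FLRT genes Flrt3 and Flrt2, the ligands Fgf1, Fgf2 and Fgf7, and the receptors Fgfr1, Fgfr2, Fgfr3 and Fgfrl1. They were chosen with results of the same tumors known. Fgfbp1 and Flrt3 had passed the threshold of edgeR between the groups when the test was limited to genes reaching 10 counts in all tumors, and the others are ligands and receptors of the same pathway. The difference between the groups is therefore given for these 10 genes as a description, without a p-value.

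Bulk RNA was sequenced from mammary tumors of the 4T1 line, which derives from a mouse mammary carcinoma: 5 grew from cells with a control guide RNA (labelled sgCon), and 5 from cells with a guide RNA to TAZ, which Wwtr1 encodes (sgTaz). The cells of both groups carried Cas9, and the labels do not state whether a group of cells was 1 clone or a pool. In the methods, 100000 sgControl or sgTaz 4T1 cells were placed into the mammary fat pad 4 of female mice aged 6 to 8 weeks. SCID and BALB/c hosts are named there, and which of them bore the sequenced tumors, and the day of harvest, are not stated. By the paper, SCID mice have no functional adaptive immunity, and B and T cell markers, given below, were detected in tumors of both groups. The comparison asks what loss of TAZ, a co-activator of the TEAD transcription factors, changes in the tumor and its surroundings.

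Secreted FGFs bind receptor tyrosine kinases together with heparan sulfate, a sulfated sugar chain of the cell surface and matrix, and signal through the adaptor FRS2 to the RAS-MAPK cascade. Much of the ligand is held in the matrix by heparan sulfate, and FGFBP1 is a secreted protein that binds such FGFs and carries them to their receptors. FLRT proteins are membrane proteins with leucine-rich repeats that bind FGF receptors as well as UNC5 receptors and latrophilins. In the mammary gland, FGF10 and FGF7 of the stroma act on FGFR2 of the epithelium, and FGFR1 and FGFR2 have been studied as oncogenes in breast cancer.

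Fgfbp1 (ENSMUSG00000048373.8) is read from the minus strand of mm10 chromosome 5, at 43978858 to 43981779, and its exons cover 2263 bases. Flrt3 (ENSMUSG00000051379.12) is on chromosome 2, also on the minus strand, from 140650914 to 140671469, with 4865 exon bases, inside the gene body of Macrod2 on the opposite strand. Neither shares exon bases with another annotated gene. Flrt2, the FLRT homologue among the 10 genes, lies on the plus strand of chromosome 12 from 95692226 to 95785215. The 250 bases before the RefSeq start sites of these 3 genes (GRCm38.p6) are shown because Fgfbp1 and Flrt3 are the 2 genes whose levels did not overlap between the groups, in opposite directions, and Flrt2 is the homologue that overlapped. They were taken from chr5:43981800-43982049, chr2:140671477-140671726 and chr12:95691976-95692225, are written 5′ to 3′ on the strand of the gene, and have matches to the searched motifs in capitals.
Fgfbp1: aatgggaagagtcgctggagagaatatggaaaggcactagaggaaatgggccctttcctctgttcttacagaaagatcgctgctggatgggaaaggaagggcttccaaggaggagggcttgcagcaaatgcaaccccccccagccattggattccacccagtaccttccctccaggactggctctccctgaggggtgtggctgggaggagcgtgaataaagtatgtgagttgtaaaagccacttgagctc
Flrt3: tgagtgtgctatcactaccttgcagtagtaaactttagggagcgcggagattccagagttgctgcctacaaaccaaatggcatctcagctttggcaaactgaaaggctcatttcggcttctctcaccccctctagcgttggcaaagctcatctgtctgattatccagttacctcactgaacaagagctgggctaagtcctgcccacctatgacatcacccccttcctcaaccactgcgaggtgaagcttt
Flrt2: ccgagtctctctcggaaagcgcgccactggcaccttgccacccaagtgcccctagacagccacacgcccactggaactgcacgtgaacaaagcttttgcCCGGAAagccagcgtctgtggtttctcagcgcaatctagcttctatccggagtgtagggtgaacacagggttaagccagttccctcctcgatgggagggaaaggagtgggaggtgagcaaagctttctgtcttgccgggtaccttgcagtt

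The motifs searched were GGAATG for TEAD factors, TGANTCA for AP-1 and CCGGAA for ETS factors on both strands and TATAAA on the strand of the gene, in a window of 300 bases that ends 50 bases after the RefSeq start. They do not overlap in these sequences. Among 32851 RefSeq promoter windows of this length, 14.7% held GGAATG, 7.81% TGANTCA, 14.9% CCGGAA and 8.32% TATAAA. None of the 3 windows held GGAATG or TGANTCA. The window of Flrt2 held CCGGAA once, ending 146 bases before the start. The window of Fgfbp1 held TATAAA once, after the RefSeq start and ending 12 bases before the GENCODE start at 43981779, and so outside the stretch printed. In the stretch of Flrt3 none of the motifs was found. These letters were searched in this window only.

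Libraries held 14753922 to 19595821 counts (sgCon) and 12185383 to 18395558 counts (sgTaz), so that 3 counts correspond to between 0.153 and 0.246 CPM, the counts scaled to library size, for counting error only. Levels are given as CPM normalized with TMM, a scaling that removes differences in library composition, and compared between genes only as CPM per kilobase of exon. Wwtr1 was at 163 ± 30.2 CPM (SD, n = 5) in sgCon and 108 ± 19.2 CPM (SD, n = 5) in sgTaz tumors, which is a log2 fold change of -0.59 ± 0.15 (SE, quasi-likelihood test of edgeR, adjusted p 0.0960), and the groups overlapped. Of the markers of epithelial tumor cells, all 10 were detected in every tumor, with a summed level of 2198 to 4887 CPM in sgCon and 1589 to 3651 CPM in sgTaz tumors. The 8 markers of lymph node stroma with its high endothelium summed to 43.5 to 882 CPM in sgCon tumors, 408 CPM in sgTaz tumor 5 and at most 7.61 CPM in the other sgTaz tumors. Since sgTaz tumor 5 stands apart from its group in these markers, the fitted log2 fold changes of the 10 genes are also given without it. That of Wwtr1 was -0.57 without it.

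Fgfbp1 was lower in every sgTaz tumor than in every sgCon tumor, and Flrt3 was higher in every sgTaz tumor than in every sgCon tumor. In the order of the tumor numbers, Fgfbp1 was at 57.5, 28.6, 24.4, 31.4 and 37.0 CPM in sgCon tumors and at 8.97, 9.94, 13.8, 11.8 and 13.7 CPM in sgTaz tumors. The highest sgTaz tumor was thus well below the lowest sgCon tumor, and sgCon tumor 1 was far above the other sgCon tumors. The means were 35.8 ± 13.0 CPM (SD, n = 5) and 11.6 ± 2.16 CPM (SD, n = 5), a level 3.08-fold higher in sgCon tumors. The fitted log2 fold change of Fgfbp1 was -1.62 ± 0.23 (SE), and -1.68 without sgTaz tumor 5. It was -1.38 without sgCon tumor 1, the smallest size among the fits that left out 1 tumor. By its fold change, Fgfbp1 ranked 253 from the lowest among 14816 genes tested.

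Flrt3 was at 42.1, 35.1, 26.0, 42.5 and 29.0 CPM in sgCon tumors and at 63.1, 68.5, 67.1, 76.0 and 75.5 CPM in sgTaz tumors. The 5 sgTaz tumors lay close together, with a coefficient of variation of 7.96% against 21.3% in sgCon tumors. The means were 34.9 ± 7.46 CPM (SD, n = 5) and 70.0 ± 5.57 CPM (SD, n = 5), a 2.0-fold higher level in sgTaz tumors. The fitted log2 fold change of Flrt3 was 1.00 ± 0.14 (SE), and 0.97 without sgTaz tumor 5. Over the fits that left out 1 tumor each it lay between 0.92 and 1.08. Per length, sgCon tumors had a ratio of Flrt3 to Fgfbp1 of 0.480 ± 0.126 (SD, n = 5), and sgTaz tumors had one of 2.86 ± 0.430 (SD, n = 5), so that the order of the pair was inverted between the groups in every tumor.

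**Figure D1:**
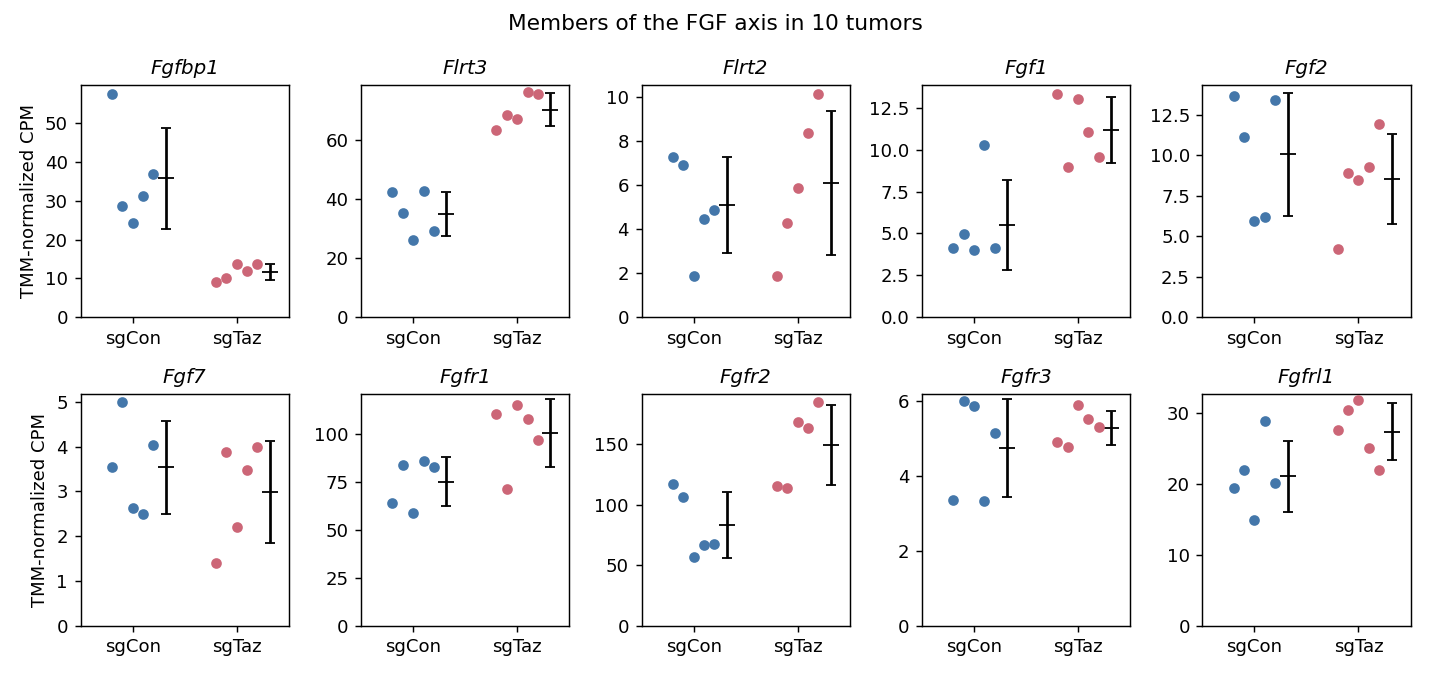
TMM-normalized CPM of each of the 10 genes in the 5 sgCon and 5 sgTaz tumors, 1 point per tumor, with the mean and SD of the group as a bar beside the points. The groups are separate for Fgfbp1, lower in sgTaz tumors, and for Flrt3, higher in sgTaz tumors, and overlap for the other 8 genes.

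Among all 14816 genes tested, 2.13% were lower and 2.44% were higher in sgTaz tumors without overlap between the groups. Of the 10 genes, 1 was lower and 1 was higher in this way, and both are the genes by which the set was chosen. With edgeR's quasi-likelihood test at an adjusted p below 0.05, 0 of the 10 genes were called, where 0.00675% of all genes were, and 6 had an unadjusted p below 0.05, where 21.8% of all genes did. DESeq2 called 4 of the 10, 3 higher and 1 lower in sgTaz tumors, where it called 6.87% of all genes. limma-voom called 5 of them, 4 higher and 1 lower, where it called 10.4%. Nothing is read from these counts, since the genes were chosen from this same comparison.

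Flrt2, which like Flrt3 acts in cell adhesion and axon guidance, overlapped between the groups. It was at 7.27, 6.91, 1.87, 4.44 and 4.86 CPM in sgCon tumors and at 1.85, 4.26, 5.84, 8.34 and 10.1 CPM in sgTaz tumors. Both groups thus held a tumor near 1.9 CPM, and the 2 highest values were in sgTaz tumors. The fitted log2 fold change was 0.26 ± 0.44 (SE), and -0.0059 without sgTaz tumor 5, in which it was highest.

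Of the receptor genes, Fgfr1 lies on chromosome 8 from 25513654 to 25575718. Fgfr3 and Fgfrl1 lie on chromosome 5 from 33721674 to 33737068 and from 108692382 to 108706924. Fgfr2 is annotated in GENCODE M21 on chromosome 7 from 130162451 to 133123350, a long span that takes in exon bases of the gene Ctbp2. Per length, Fgfr2, Fgfr1 and Fgfrl1 led the receptors, at 8.03, 7.61 and 7.56 CPM per kilobase in sgCon tumors. In sgTaz tumors they were at 14.4, 10.2 and 9.84 CPM per kilobase, and neighbours in this order overlapped in both groups. Fgfr2 and Fgfr1 encode tyrosine kinases. Fgfr2 was at 117, 107, 56.5, 66.4 and 67.9 CPM in sgCon tumors and at 115, 114, 168, 163 and 185 CPM in sgTaz tumors. Of the sgTaz tumors, 3 were above every sgCon tumor, and the other 2 were level with sgCon tumor 1. The means were 83.0 ± 27.1 CPM (SD, n = 5) and 149 ± 32.7 CPM (SD, n = 5), with a log2 fold change of 0.85 ± 0.22 (SE), and 0.76 without sgTaz tumor 5. Fgfr2 shares 314 exon bases with Ctbp2 on the same strand, so that the reads of this stretch cannot be assigned to 1 of the 2 genes.

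Fgfr1 was at 63.9, 83.8, 58.7, 86.3 and 83.0 CPM in sgCon tumors and at 111, 71.2, 116, 108 and 96.9 CPM in sgTaz tumors. All sgTaz tumors except sgTaz tumor 2 were above every sgCon tumor, and the log2 fold change was 0.42 ± 0.15 (SE), and 0.43 without sgTaz tumor 5. Fgfrl1 encodes a receptor that lacks the tyrosine kinase domain. It ranged from 15.0 to 28.8 CPM (sgCon) and from 22.0 to 31.9 CPM (sgTaz), with a log2 fold change of 0.38 ± 0.17 (SE), and 0.45 without sgTaz tumor 5. Fgfr3, another receptor tyrosine kinase, was low, at 3.33 to 6.01 CPM in sgCon and 4.78 to 5.89 CPM in sgTaz tumors, and its log2 fold change of 0.15 was smaller than its standard error of 0.20. It was also 0.15 without sgTaz tumor 5, and between 0.052 without sgCon tumor 4 and 0.26 without sgCon tumor 2. Exon bases shared with genes on the opposite strand number 164 for Fgfr1 and 998 for Fgfr3. Whether the counting used the strand is not stated, and the partners have no counts in the table. The summed level per length of Fgfr1, Fgfr2 and Fgfr3 was 16.3 ± 2.86 CPM per kilobase (SD, n = 5) in sgCon and 25.4 ± 4.29 CPM per kilobase (SD, n = 5) in sgTaz tumors, and the ranges of 12.2 to 19.7 and 18.9 to 28.8 overlapped.

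The ligands, Fgf1 on chromosome 18 (38838673 to 38929472), Fgf2 on chromosome 3 (37348346 to 37410108) and Fgf7 on chromosome 2 (126034658 to 126091185), were low in level. Fgf1 and Fgf2 lack a classical secretion signal, bind heparan sulfate strongly and act on several receptors. Fgf1 was at 4.14, 4.96, 3.99, 10.3 and 4.11 CPM in sgCon tumors and at 13.4, 8.98, 13.1, 11.1 and 9.60 CPM in sgTaz tumors. The sgTaz tumors were all above 4 of the sgCon tumors, and sgCon tumor 4 lay within their range. The log2 fold change of Fgf1 was 1.02 ± 0.27 (SE), 1.08 without sgTaz tumor 5 and 1.38 without sgCon tumor 4.

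Fgf2 was at 13.7, 11.2, 5.93, 6.16 and 13.4 CPM in sgCon tumors and at 4.20, 8.91, 8.46, 9.31 and 11.9 CPM in sgTaz tumors. The groups overlapped widely, and its log2 fold change was -0.24 ± 0.31 (SE). With 1 tumor left out it lay between -0.38 without sgTaz tumor 5 and -0.06 without sgTaz tumor 1. In GENCODE M21, Fgf2 shares 640 exon bases with Nudt6 on the opposite strand and 255 with Gm43439 on the same strand. The counts were made on GENCODE v12, and how reads of shared bases were counted is not stated. The counts of Fgf2 may therefore hold reads of these genes or lack reads of the shared bases. Fgf7, a stromal ligand of the epithelial form of FGFR2, was between 2.50 and 5.01 CPM in sgCon and between 1.40 and 4.00 CPM in sgTaz tumors, with a log2 fold change of -0.25 ± 0.31 (SE). This too was between -0.38 without sgTaz tumor 5 and -0.07 without sgTaz tumor 1. With 22 to 100 counts per tumor, Fgf7 had the lowest counts of the 10 genes.

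**Figure D2:**
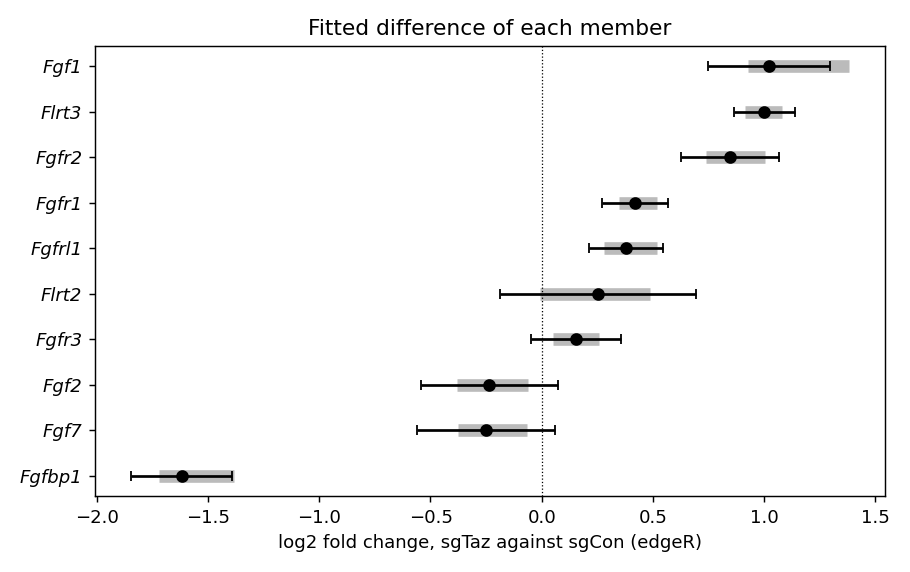
Fitted log2 fold change of sgTaz against sgCon tumors from edgeR for each of the 10 genes, as a point with its standard error. Grey bars span the fits that left out 1 tumor each, from -1.72 to -1.38 for Fgfbp1 and from 0.92 to 1.08 for Flrt3, and the bar of Flrt2 crosses 0.

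Per length, Fgfbp1 had the highest mean of the 10 genes in sgCon tumors, at 15.8 ± 5.74 CPM per kilobase (SD, n = 5). Fgfr2, Fgfr1, Fgfrl1 and Flrt3 followed between 7.18 and 8.03 CPM per kilobase, and each neighbour in this order overlapped with the next. A gap then separated these 5 genes from Fgf2, Fgf7, Fgf1, Fgfr3 and Flrt2, which lay between 0.657 and 1.49 CPM per kilobase and also overlapped with their neighbours. In sgTaz tumors, Fgfr2 at 14.4 ± 3.17 and Flrt3 at 14.4 ± 1.15 CPM per kilobase (SD, n = 5 each) came first and overlapped. Flrt3 did not overlap with Fgfr1, the next in the order. Fgfbp1 was in the fifth place at 5.14 ± 0.955 CPM per kilobase (SD, n = 5), below Fgfrl1 and above Fgf1 without overlap with either. Fgf1 was the highest of the 3 ligands in sgTaz tumors, at 2.05 CPM per kilobase, and the lowest of them in sgCon tumors, at 1.01 CPM per kilobase, although neighbouring ligands overlapped in both groups.

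**Figure D3:**
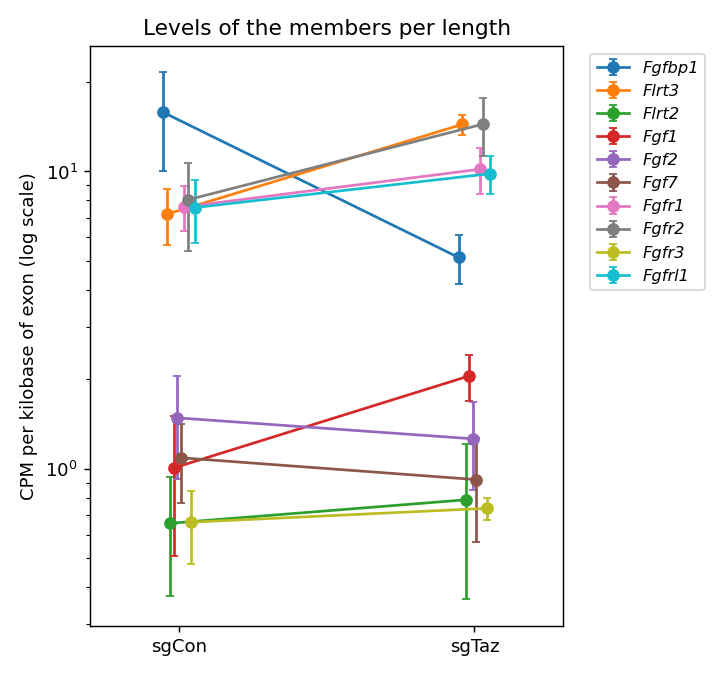
Mean level per length of the 10 genes in CPM per kilobase of exon on a log axis, with SD over 5 tumors, in sgCon and sgTaz tumors joined by a line per gene. Fgfbp1 moves from the first place at 15.8 to the fifth at 5.14, and the line of Flrt3 from 7.18 to 14.4 crosses it.

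The 10 epithelial markers had lower fitted values in sgTaz tumors. Fgfbp1 ranked with their mean among sgCon tumors, and among sgTaz tumors mainly sgTaz tumor 2 departed from this order. In whole tumors, fewer cells of a type and less RNA per cell cannot be told apart. All 10 epithelial markers had a negative log2 fold change, from -0.33 for Epcam to -1.94 for Krt5. In the 5 sgCon tumors, Fgfbp1 and the mean log2 CPM of these markers, between 6.81 and 7.59, ranked in the same order. In sgTaz tumors the marker mean was between 5.56 and 7.13. sgTaz tumor 2 had the marker mean of 7.13, within the sgCon range, and at 9.94 CPM its Fgfbp1 was below every sgCon tumor. Its Fgfbp1 was also below that of sgTaz tumors 3, 4 and 5, at 13.8, 11.8 and 13.7 CPM, although their marker means were lower. sgTaz tumor 1 was lowest in both, with a marker mean of 5.56 and Fgfbp1 at 8.97 CPM. Apart from sgTaz tumor 2, only sgTaz tumors 3 and 5 changed places, with close Fgfbp1 levels and marker means of 6.37 and 6.61. Over the 10 tumors with group means taken off, Pearson's r of Fgfbp1 with the marker mean was 0.55, a description in which both values share the library and its composition. It was 0.56 with fibroblast and 0.64 with adipocyte markers, and with the epithelial markers Fgf2 had 0.77, Fgf7 0.70 and Flrt2 0.55.

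Taken relative to the mean log2 CPM of the epithelial markers of the same tumor, Fgfbp1 was at -2.05 ± 0.20 (SD, n = 5) in sgCon and at -2.87 ± 0.55 (SD, n = 5) after TAZ targeting. The difference was -0.81, against -1.57 without this scaling, and the groups still did not overlap, with -2.26 as the lowest sgCon value and -2.37 as the highest sgTaz value. sgTaz tumor 2 had the lowest relative level, at -3.79, and the difference was -0.58 without this tumor. With all tumors, the difference was -1.16 with Krt8 and Krt18 alone as the reference and -0.56 with the median over the markers in place of the mean. For Flrt3 the relative level was -2.05 ± 0.40 (SD, n = 5) in sgCon and -0.28 ± 0.52 (SD, n = 5) after TAZ targeting, which gives 1.78 against 1.02 without the scaling, 1.43 with Krt8 and Krt18 alone and 2.02 with the median. The scaling subtracts the same marker mean from every gene of a tumor, and that mean differed by -0.75 between sgTaz and sgCon tumors. The differences of all 10 genes therefore rose by the same amount, and this shift is not a property of any single gene. Through it the differences of Fgf2 and Fgf7 changed sign, from -0.21 to 0.54 and from -0.28 to 0.47. Those of the other 6 genes were positive, between 0.94 and 1.85. The part of the epithelial markers in these differences was not tested.

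**Figure D4:**
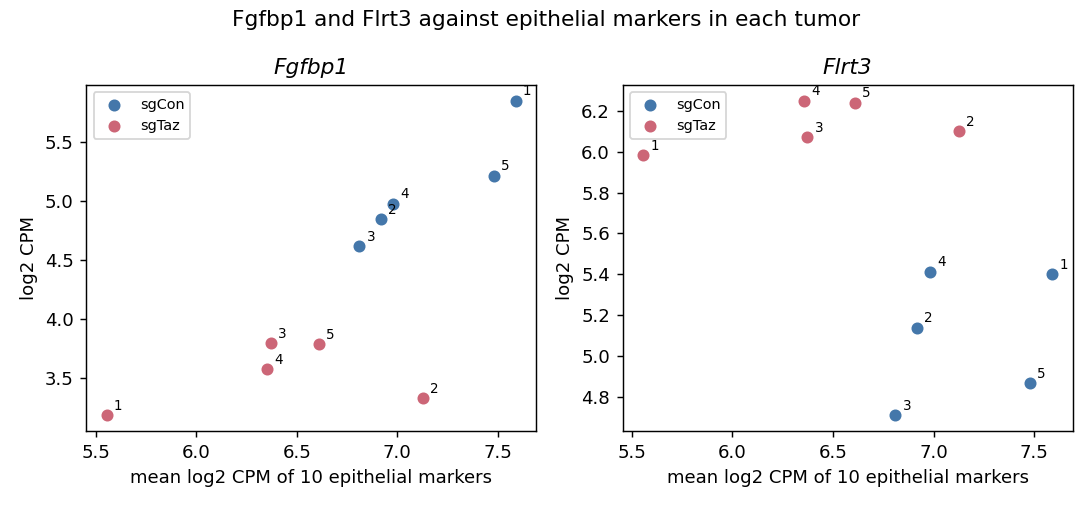
Level of Fgfbp1 and Flrt3 in log2 CPM against the mean log2 CPM of 10 epithelial markers in each tumor, with the tumor number beside each point. sgTaz tumor 2 has a marker mean of 7.13, within the sgCon range of 6.81 to 7.59, and lies below all sgCon tumors for Fgfbp1 and above them for Flrt3. sgTaz tumor 1 has the lowest marker mean, 5.56, and the lowest Fgfbp1.

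The 10 genes did not vary as 1 block among tumors of the same group. Each r with markers uses the mean log2 CPM of the tested markers of the list, not single markers. With group means taken off, Flrt2 went with the mean of the fibroblast markers (r = 0.91 over 10 tumors). It also went with neutrophil (0.88), pericyte (0.87), adipocyte (0.83) and endothelial (0.81) markers, and with Fgf2 (r = 0.85) and Fgfr2 (r = 0.83). Fgf2 and Fgf7 went with each other (r = 0.84), with fibroblast markers (r = 0.85 and 0.77), with pericyte and smooth muscle markers (r = 0.84 and 0.82), with neutrophil markers (r = 0.78 and 0.73) and with epithelial markers (r = 0.77 and 0.70). Fgfr2 had r = 0.81 with adipocyte and 0.79 with neutrophil markers. Flrt3 had r = 0.60 with endothelial markers, its highest among the marker lists, 0.39 with pericyte, 0.34 with fibroblast and 0.28 with epithelial markers. With T cell markers Flrt3 had r = -0.71 and Fgfrl1 had -0.87. Fgfbp1 and Flrt3, which lay in opposite directions between the groups, had r = 0.57 with each other inside the groups. All these values are descriptions over 10 tumors that share library, depth and composition, and no p is attached to them.

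The summed level of 10 fibroblast markers was 1743 to 4842 CPM in sgCon and 1691 to 4802 CPM in sgTaz tumors, with 7 positive and 3 negative fitted log2 fold changes. The 7 macrophage markers had positive fitted log2 fold changes, with summed levels of 746 to 1765 CPM in sgCon and 1458 to 2054 CPM in sgTaz tumors. With group means taken off, Fgf1 had r = 0.58 with them, and -0.61 with T cell, -0.46 with epithelial and -0.45 with B cell markers. All 6 tested adipocyte markers had positive fitted log2 fold changes, such as 1.91 for Plin1 and 1.48 for Adipoq, and they summed, with Lep, to 54.8 to 124 CPM in sgCon and 40.8 to 257 CPM in sgTaz tumors. The 5 tested neutrophil markers had negative ones, with sums over the list of 168 to 695 CPM in sgCon and 66.8 to 260 CPM in sgTaz tumors. The fitted values of the 7 B cell and 6 T cell markers were also negative, with sums of 64.7 to 807 and 84.8 to 623 CPM in sgCon tumors. In sgTaz tumors these sums were at most 20.6 and 80.8 CPM, except in sgTaz tumor 5 with 172 and 162 CPM, within the sgCon ranges. edgeR called 0 genes of the 11 marker lists. At an unadjusted p below 0.05, all 7 B cell, all 6 T cell, 3 neutrophil and 5 epithelial markers were lower, 5 macrophage markers were higher, and 0 adipocyte markers passed. Of the fibroblast markers 1 was higher and 1 lower, and of the pericyte and smooth muscle markers 1 was higher and 2 were lower. Of all genes tested, 9.86% were higher and 11.9% lower in this way. The marker lists were chosen with earlier results of these data known. The part of these markers in the levels of the FGF genes was not tested.

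Of 14064 other genes with a mean of at least 1 CPM, those whose log2 CPM was most like that of Fgfbp1 over the 10 tumors, with group means taken off, were Asah2 (r = 0.96), Fasn (0.95), Wrn (0.94), Pola1 (0.94) and Pcm1 (0.94). Those most like Flrt3 were Ramp1 (0.97), Vdr (0.97), Glb1 (0.96), Sertad4 (0.95) and Eif2a (0.95). The log2 fold changes of these 10 genes between the groups were between -0.10 and 0.27, with edgeR adjusted p-values between 0.223 and 0.916. The nearest protein-coding neighbours of Fgfbp1 in the table, looked up after its values were known, were Prom1 at 11841 bases and Cd38 at 66483 bases. Their log2 fold changes were 0.77 ± 0.44 (SE, edgeR adjusted p 0.327) and 0.27 ± 0.12 (SE, edgeR adjusted p 0.206). Macrod2, the gene around Flrt3, had a log2 fold change of -0.062 ± 0.25 (SE, edgeR adjusted p 0.907).

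The other genes of the pathway were taken from 5 lists of 102 genes in all, of which 88 were in the table and 78 were tested. These lists too were chosen with earlier results of these data known. Nothing about the pathway is therefore read from their calls or p-values, here or by list below. None of the 78 genes was called by edgeR at an adjusted p below 0.05. At an unadjusted p below 0.05, 18 were higher and 4 were lower in sgTaz tumors, where 9.86% and 11.9% of all genes were. Of the 88 genes, DESeq2 called 8 as higher and 3 as lower, the latter being Fibp, Dusp5 and Fgf23, which edgeR did not test, where it called 3.38% and 3.50% of all genes. Of the 78 genes, limma-voom called 11 and 5, where it called 4.63% and 5.80% of all genes. Without overlap between the groups, 6 of the list genes were higher and 1 was lower in sgTaz tumors, beside the 2.44% and 2.13% of all genes. The median log2 fold change of the 78 genes was 0.087, and that of all genes tested was -0.019. The shares of all genes given here also stand beside the counts of each list below.

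Among 19 other FGF ligands, 8 were in the table and 3 were tested. None was called by edgeR, with 1 lower at an unadjusted p below 0.05. DESeq2 called 1 as lower, Fgf23, and limma-voom called 1 as lower, Fgf13, and the median log2 fold change of the 3 was -0.32 with all 3 values negative. Fgf13, an intracellular FGF homologue that binds sodium channels and not FGF receptors, was at 2.22, 1.60, 6.61, 0.777 and 3.49 CPM in sgCon and at 0.318, 0.840, 0.321, 0.405 and 2.18 CPM in sgTaz tumors. Of the sgCon tumors, 2 lay within the sgTaz range, which reached up through sgTaz tumor 5, and the log2 fold change, -2.62 without that tumor, was -1.86 ± 0.66 (SE, edgeR adjusted p 0.152, limma-voom 0.0447, DESeq2 0.0559). Fgf11, of the same intracellular group, had the highest level per length of this list at 2.16 CPM per kilobase in sgCon tumors and a log2 fold change of -0.23 ± 0.24 (SE). Fgf10, the stromal ligand of FGFR2, had 2 to 20 counts per tumor and was not tested.

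Of 25 other receptors, binding proteins and FLRT partners, 19 were tested. DESeq2 called 2 as higher and 1 as lower in sgTaz tumors, and at an unadjusted p below 0.05 edgeR gave 5 and 1. Gpc4, a glypican that carries heparan sulfate on the cell surface, was at 27.7, 21.5, 19.2, 25.8 and 18.1 CPM in sgCon and at 52.4, 28.9, 50.6, 34.3 and 35.0 CPM in sgTaz tumors. The groups did not overlap, and its log2 fold change of 0.84 ± 0.19 (SE) came with adjusted p-values of 0.0896 in edgeR and 0.00220 in DESeq2. Fibp, which encodes an intracellular protein that binds FGF1, was lower, with 46.6 ± 4.18 CPM (SD, n = 5) in sgCon and 34.3 ± 4.57 CPM (SD, n = 5) in sgTaz tumors and a log2 fold change of -0.44 ± 0.11 (SE, edgeR adjusted p 0.0960). Sdc4, a syndecan, had the highest level per length of the list, at 124 CPM per kilobase in sgCon and 133 CPM per kilobase in sgTaz tumors. The fitted log2 fold change was 0.096 ± 0.099 (SE), and 0.17 without sgTaz tumor 5. Fgfr4 had at most 11 counts in a tumor.

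Of 18 heparan sulfate enzymes, 17 were tested, with a median log2 fold change of 0.19 and 12 of them positive. DESeq2 called 3 as higher and none as lower, edgeR called none, and 6 were higher at an unadjusted p below 0.05. Sulf2, which removes sulfate groups from heparan sulfate outside the cell, was at 29.2, 45.8, 35.4, 57.0 and 22.3 CPM in sgCon and at 78.0, 44.0, 76.1, 88.5 and 65.5 CPM in sgTaz tumors. Only sgTaz tumor 2 lay within the sgCon range, and the log2 fold change was 0.89 ± 0.25 (SE, edgeR adjusted p 0.101). Ndst2, a sulfotransferase of chain synthesis, had a log2 fold change of 0.27 ± 0.081 (SE, edgeR adjusted p 0.115). Its homologue Ndst1 was among the highest of the list per length, at 17.7 ± 1.54 CPM per kilobase (SD, n = 5) in sgCon tumors beside 17.7 ± 4.19 for Hs6st1, and in sgTaz tumors Extl3 was above it, at 18.7 against 18.5 CPM per kilobase. Ndst1 had a log2 fold change of 0.070 ± 0.072 (SE).

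The 23 adaptors and kinases were all tested, with a median log2 fold change of 0.032 and 0 genes called by edgeR, DESeq2 or limma-voom. At an unadjusted p below 0.05, 3 were higher and 0 lower. Crkl and Crk, adaptor proteins downstream of the receptors, had log2 fold changes of 0.18 ± 0.066 (SE, edgeR adjusted p 0.163) and 0.20 ± 0.079 (SE, edgeR adjusted p 0.189). Mapk3, which encodes the kinase ERK1, was the highest of the list per length and had a log2 fold change of -0.068 ± 0.11 (SE), between -0.12 and 0.050 with 1 tumor left out.

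Of 17 feedback inhibitors and response genes, 16 were tested, with a median log2 fold change of 0.24 and 13 of them positive. Without overlap between the groups, 3 were higher and 1 was lower, where 2.44% and 2.13% of all genes tested were. edgeR called none, with 4 higher and 2 lower at an unadjusted p below 0.05. Etv5, an ETS factor that FGF signaling induces, was at 56.1, 55.4, 44.7, 62.6 and 43.6 CPM in sgCon and at 69.8, 77.5, 73.6, 67.9 and 78.8 CPM in sgTaz tumors. The fitted log2 fold change of 0.49 ± 0.11 (SE) came with adjusted p-values of 0.0896 in edgeR and 0.00386 in DESeq2. Spred2, an inhibitor of the RAS-MAPK cascade, was at 62.0 ± 11.6 CPM (SD, n = 5) in sgCon and 85.2 ± 3.93 CPM (SD, n = 5) in sgTaz tumors, with a log2 fold change of 0.46 ± 0.12 (SE, edgeR adjusted p 0.0960). Dusp6, the phosphatase of ERK that is widely used as a readout of FGF signaling, was the highest of the list per length and had a log2 fold change of 0.10 ± 0.16 (SE, edgeR adjusted p 0.735). Thus Etv5 and Spred2 were separate between the groups and higher in sgTaz tumors, while Dusp6 overlapped. The 2 genes lower at an unadjusted p below 0.05 were Dusp5 and Ier3. Dusp5 was separate between the groups, with a log2 fold change of -0.67, and Ier3 overlapped, with one of -0.66.

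**Figure D5:**
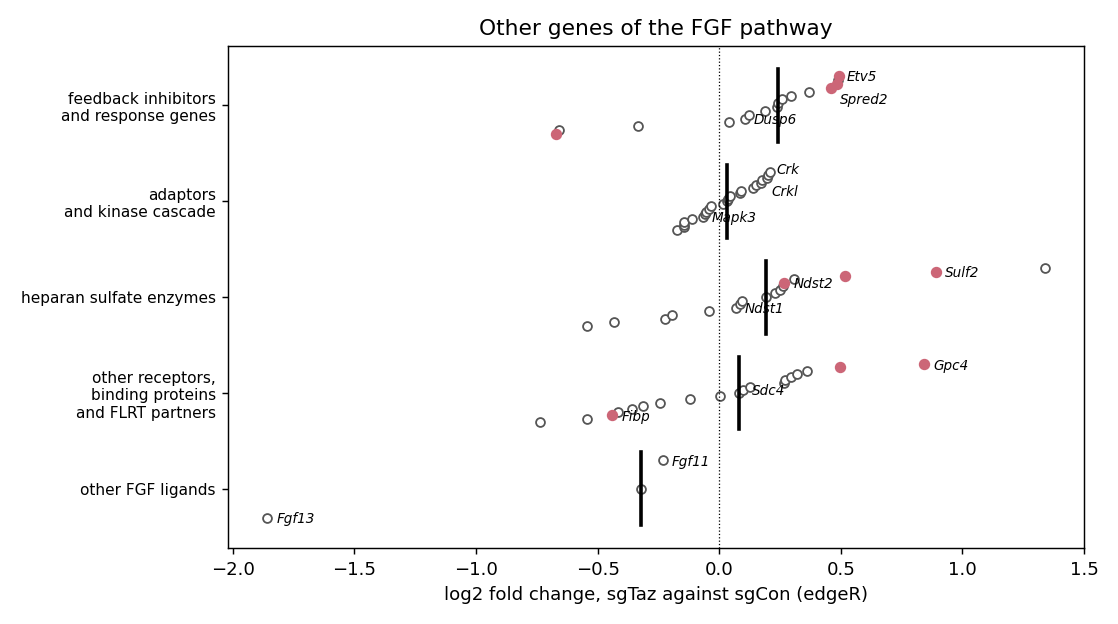
Log2 fold change of sgTaz against sgCon tumors from edgeR for the 78 tested genes of 5 lists, 1 point per gene, with a vertical bar at the median of each list. Filled points have an adjusted p below 0.05 in DESeq2, the genes named by the rule given with the processing are labelled, and no gene passed the threshold of edgeR.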

How the data were processed

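RNA of 10 whole 4T1 tumors was sequenced, 5 sgCon and 5 sgTaz. Alignment by the authors used STAR on mm10 (GRCm38) with GENCODE (v12) genes, and featureCounts of Subread gave reads per gene. The deposited values are these raw counts, whole numbers for 17864 genes. The versions of STAR and Subread, the strand setting and the criterion for listing a gene are not given in the sources used here. Another 5 columns of the table were left unused. Tumors were grouped by sample title, and nothing says whether numbers pair them.

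Identifiers were matched to GENCODE M21 (17860 of 17864 found). Tests ran in edgeR 4.0.16 under R 4.3.3 (TMM, filterByExpr, glmQLFit, glmQLFTest, Benjamini-Hochberg over 14816 genes, threshold 0.05). DESeq2 1.42.0 and limma 3.58.1 (voom with sample quality weights), other normalizations and filters, each tumor left out and the replicate number as a block were alternatives. log2 CPM used a prior count of 2. Descriptions used Python 3.11.15 with pandas 2.3.3 and numpy 2.4.6, and figures matplotlib 3.10.9. Scripts were tested on simulated counts. The 10 genes, the 5 pathway lists and the 11 marker lists were chosen with earlier results of these data known. Beside the 10 genes and Wwtr1, the text names, of each pathway list, the genes called, the 2 with the smallest p and a mean of at least 1 CPM, and the highest per length, and the 5 genes most like Fgfbp1 and Flrt3. Promoter sequences are from RefSeq (GRCm38.p6), with entries for all 3 genes shown. Labels name the samples as separate tumors, and p-values measure the spread between them. The methods list a single target sequence for Taz, so that the p-values hold no spread between guides. Effects of the guide or of the injected cells cannot be told apart from loss of TAZ.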

Additional observations from a re-analysis of the deposited data

Results flagged for a closer look

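Among 50 groups of 5 tumors (25 genes in 2 groups), 3 held 1 tumor set apart from its group, and 2.5 such groups would arise by chance. Fgf1 had a log2 CPM of 3.39 in sgCon tumor 4 (10.3 CPM), with the other sgCon tumors between 3.99 and 4.96 CPM. The log2 CPM of Mapk3 was 7.72 in the same tumor (211 CPM), with the others between 136 and 153 CPM. Sdc4 had a log2 CPM of 8.08 in sgTaz tumor 5 (270.2 CPM), below the other sgTaz tumors at 349.9 to 363 CPM.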

How the results depend on the processing

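The log2 fold changes of the 10 genes kept their sign under all 17 alternatives, except that of Flrt2 without sgTaz tumor 5. With 1 tumor left out, they lay between -1.72 and -1.38 for Fgfbp1 and between 0.92 and 1.08 for Flrt3, and their levels relative to epithelial markers differed by -0.94 to -0.58 and by 1.60 to 1.96. The number of genes called in the whole table, 1 higher and 0 lower with edgeR, depended on the test, and the cause was not tested. DESeq2 called 531 higher and 550 lower, and limma-voom 686 and 860. Without a filter edgeR called 0 higher (1759 at an unadjusted p below 0.05), and with at least 10 counts in every tumor 4 higher and 1 lower. With 1 tumor left out, it called 0 to 42 higher and 0 to 130 lower. These were 42 and 130 without sgTaz tumor 5, 40 and 35 without sgTaz tumor 2, 4 and 1 without sgCon tumor 4 and 3 and 2 without sgCon tumor 3. Without sgCon tumor 1 or 5 or sgTaz tumor 1, 3 or 4, 0 genes were called (1032 to 1595 higher at an unadjusted p below 0.05). Of the pathway lists, edgeR called 0 genes in each of these fits, DESeq2 8 higher and 3 lower, and limma-voom 11 and 5. With the replicate number as a block, 0 genes were called as higher (1064 at an unadjusted p below 0.05), and the log2 fold changes were -1.57 for Fgfbp1 and 1.02 for Flrt3. Same-numbered tumors deviated with correlations between -0.24 and 0.22, 1 of 10 tumors correlated best with its own number, and the number was not read as a pairing. Depth limits the low genes, of which Fgf7 had 22 to 100 counts per tumor.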

Other observations

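Some genes of the pathway lists outside the naming rule were chosen after their values were seen, since DESeq2 called them or their groups did not overlap. Dusp5, a phosphatase of ERK in the nucleus, was lower in every sgTaz tumor, at 15.7 to 25.3 CPM in sgCon and 7.32 to 15.0 CPM in sgTaz tumors (log2 fold change -0.67 ± 0.20 SE, edgeR adjusted p 0.111 and 0.0275 from DESeq2). Etv1 was higher with overlap (log2 fold change 0.49 ± 0.14 SE, edgeR adjusted p 0.105), while Etv4 of the same ETS group was at 92.4 ± 14.7 CPM (SD, n = 5) in sgCon and 95.1 ± 23.7 CPM (SD, n = 5) in sgTaz tumors. Adgrl2, a latrophilin and so a possible partner of FLRT proteins, was at 147 ± 31.1 CPM (SD, n = 5) and 207 ± 34.9 CPM (SD, n = 5), with a log2 fold change of 0.49 ± 0.16 (SE, edgeR adjusted p 0.129). Fgf23, known as a hormone of bone, was below the filter of edgeR, with 0 to 49 counts per tumor and means of 1.58 CPM in sgCon and 0.214 CPM in sgTaz tumors, and was called as lower by DESeq2.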
